A study of Mus musculus with 130 samples.

Results

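Liver expression of 7 genes that are switched on by bone morphogenetic protein (BMP) signalling through SMAD proteins was followed in 130 mice. The genes were Id1, Id2, Id3, Id4, Smad6, Smad7 and Atoh8, listed by symbol and matched to Ensembl identifiers with the GENCODE M21 annotation. All 7 were present among 35274 genes of the diet table and among 35711 genes of the strain panel table, and all 7 passed the filter on low counts in both. The diet study held 15 male C57BL/6J mice, 3 on each of 5 diets: chow, 50 ppm iron, 500 ppm iron, 2% carbonyl iron (20000 ppm), and 2% carbonyl iron with cellulose. The labels give no iron content for chow, and neither the time on the diets nor the age of these mice is given in the sources used here. The panel held male mice of 114 inbred strains, all given chow for 4 weeks and then 2% carbonyl iron for 6 weeks, so it has no strain on low iron. It had 1 mouse per strain, except 129X1/SvJ with 2, which makes a difference between strains and a difference between single mice impossible to tell apart. The strains were 56 BXD (recombinants of C57BL/6J and DBA/2J), 20 AXB/BXA (C57BL/6J and A/J), 4 strains of the BXH set, 3 of the CXB set and 31 inbred strains outside these sets. AXB19, AXB19a and AXB19b are substrains of a single line, as are BXD48 and BXD48a. Each was counted as a separate strain, so tests over strains treat them as independent although they are not.

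In the liver, BMP2 and BMP6 are made mainly by sinusoidal endothelial cells and act on hepatocytes. There they bind receptor kinases and the co-receptor hemojuvelin, and the receptors phosphorylate SMAD1, SMAD5 and SMAD9 (also called SMAD8), which enter the nucleus with SMAD4. The best known output in hepatocytes is Hamp, which encodes hepcidin, the hormone that limits iron uptake and release. The 7 genes studied here are read as reporters of the same signal, and several of them act back on it. ID proteins are helix-loop-helix proteins without a DNA-binding region that capture other such factors. SMAD6 and SMAD7 are the inhibitory SMADs that dampen the pathway, and ATOH8 is a helix-loop-helix transcription factor of the atonal family.

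The promoters of Id4, Smad6 and Atoh8 are shown because their transcripts were higher on 2% iron than on 50 ppm and their windows do not overlap an annotated exon. Each is the 250 bases before the start of the RefSeq gene, read 5′ to 3′ on the gene's strand (RefSeq, GRCm38.p6). The windows are chr13:48260866-48261115 on the plus strand for Id4, chr9:64022060-64022309 on the minus strand for Smad6 and chr6:72235578-72235827 on the minus strand for Atoh8. Capitals mark GGCGCC, which reads the same on both strands, and GGAGCC with its reverse complement GGCTCC, GC-rich letters known from BMP-responsive elements.
Id4: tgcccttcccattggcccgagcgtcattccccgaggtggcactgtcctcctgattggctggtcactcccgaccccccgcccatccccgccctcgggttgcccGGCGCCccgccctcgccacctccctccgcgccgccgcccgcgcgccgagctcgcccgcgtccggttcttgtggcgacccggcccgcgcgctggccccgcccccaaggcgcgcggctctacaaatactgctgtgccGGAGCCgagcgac
Smad6: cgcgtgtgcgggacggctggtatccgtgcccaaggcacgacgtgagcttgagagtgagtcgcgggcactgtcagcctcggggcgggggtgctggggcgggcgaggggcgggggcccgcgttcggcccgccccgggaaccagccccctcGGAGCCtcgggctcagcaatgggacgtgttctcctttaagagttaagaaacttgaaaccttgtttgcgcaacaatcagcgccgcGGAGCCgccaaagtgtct
Atoh8: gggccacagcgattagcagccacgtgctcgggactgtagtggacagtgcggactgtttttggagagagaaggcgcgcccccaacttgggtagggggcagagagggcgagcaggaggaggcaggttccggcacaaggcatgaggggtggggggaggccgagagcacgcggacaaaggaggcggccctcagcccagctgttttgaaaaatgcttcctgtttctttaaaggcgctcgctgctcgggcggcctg
The Id4 window held 1 GGCGCC and 1 GGAGCC, the Smad6 window held 2 GGAGCC matches and no GGCGCC, and the Atoh8 window held neither. Id2 had 1 match to each motif and Id3 had 1 match to GGAGCC in windows of the same length, so 4 of the 5 members with a window held a 6-base motif. The Id2 and Id3 windows each overlapped 1 annotated exon, unlike the 3 shown. Id1 and Smad7 had no window to search. Of all 27025 RefSeq windows of this length, 9.54% held GGCGCC, 25.7% held GGAGCC and 31.5% held at least 1 of them. The members' windows were GC-rich, at 62.8% to 75.6% against a median of 52% over all windows, and among the 5747 windows at least as GC-rich as the lowest of them 64.1% held a 6-base motif. The short SMAD-binding letters GTCT, searched on both strands and not marked, were in 83.01% of all windows, with 2 matches in Id3, 1 each in Id2 and Smad6, and none in Id4 and Atoh8. A match is a description of the letters in these windows and not a measured binding site.

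Depth, tissue and labels were checked across all libraries. Diet libraries held 10.4 to 20.4 M counts (M for 1000000) and panel libraries 9.41 to 20.57 M. Hepatocyte markers dominated both tables, with albumin (Alb) at a mean of 64918 CPM (counts per 1000000) over the diet mice and 82673 CPM over the panel. Pairs of mice of 1 diet differed by 14.03 to 61.7 times the variance that read sampling gives, so no diet library repeated that of a group mate. The library labelled BXD65 had 3.94 CPM of Y-linked transcripts, against 118 to 328 CPM in the other panel strains, although its label says male. Levels below are CPM scaled with TMM factors, unless TPM (transcripts per 1000000, which correct for transcript length) is named.

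**Figure D1:**
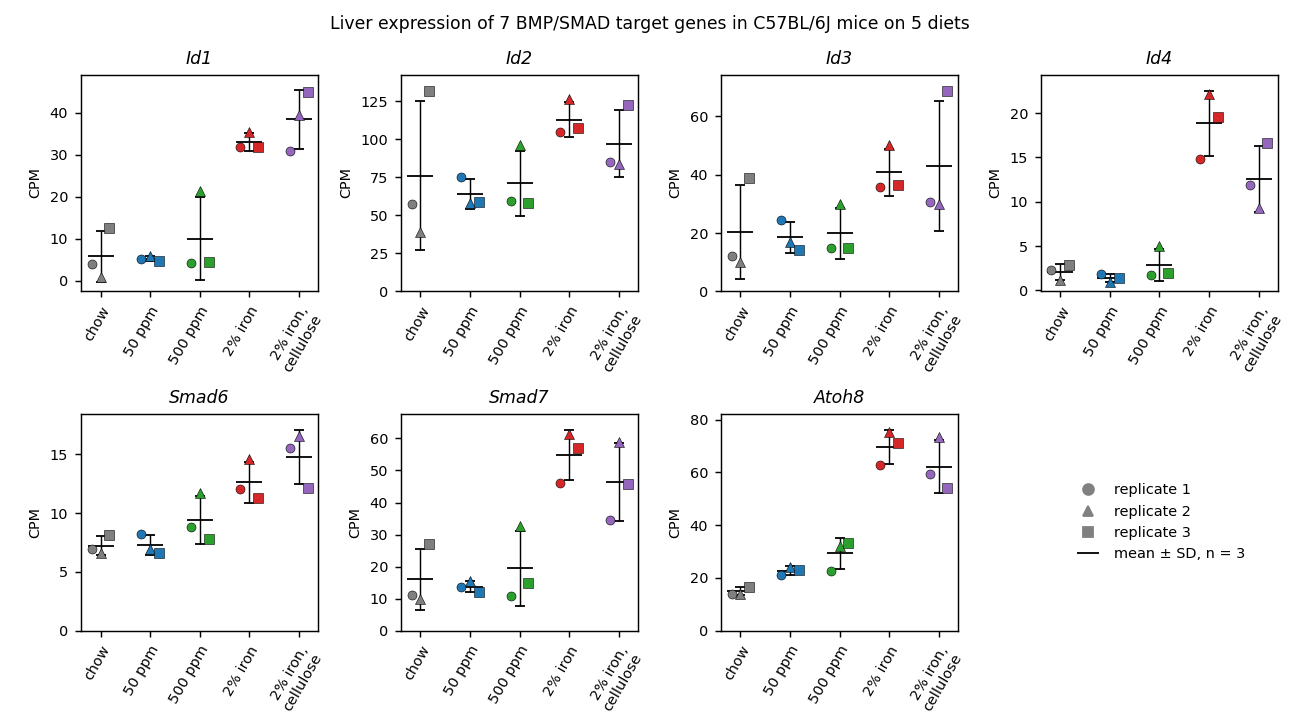
Level of each of the 7 genes (vertical axis, CPM from 0 or just below it) in each mouse of the 5 diet groups (horizontal axis), with points for mice and bars for the mean ± SD (n = 3). The mice on both 2% diets lie above those on 50 ppm for all 7 genes, and chow mouse 3 and 500 ppm mouse 2 lie above their group mates for Id1, Id2, Id3, Id4, Smad6 and Smad7.

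Of the 7 genes, 5 rose on 2% iron relative to 50 ppm: Id1, Id4, Smad6, Smad7 and Atoh8. The remaining 2, Id2 and Id3, did not pass the test. The share of all 13560 tested genes called higher in this comparison was 8.52%. The members' median log2 change was 1.61, and the median over all tested genes was 0.0092. For all 7 members the 3 mice on 2% iron lay above the 3 mice on 50 ppm, and 19.2% of all tested genes showed such a separation in this direction. All calls on diets come from edgeR's quasi-likelihood test with Benjamini-Hochberg adjustment over all tested genes, in 1 fit of the 15 mice. These are bulk liver libraries, in which fewer cells of a type and less RNA per cell cannot be told apart.

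Markers of some other liver cells also differed on 2% iron. All 8 Kupffer cell and macrophage markers were higher on 2% iron than on 50 ppm, and their summed level was 559 to 596 CPM against 136 to 229.6 CPM. That sum was 127 to 255.7 CPM on 500 ppm, 158 to 192.7 CPM on chow and 559 to 839 CPM on 2% iron with cellulose. Of 10 sinusoidal endothelial markers, 2 were higher (Stab2 and Cdh5), with sums of 485 to 501 CPM against 311.9 to 409 CPM. Among 8 stellate cell markers 1 was higher (Colec11), with sums of 339.6 to 421 CPM against 291 to 418 CPM. Erythroid markers split, with 4 of the 5 tested higher (3 globin genes and Slc4a1) and Alas2 lower, at sums of 278 to 418 CPM against 65.8 to 105.45 CPM. Of the 5 neutrophil markers tested, edgeR called none, although for 2 the unadjusted p was below 0.05, and their sum was 3.64 to 13.3 CPM against 0.194 to 0.8287 CPM. Ltf was at 0 counts in all 3 mice on 50 ppm. Of the 4 cholangiocyte and 5 lymphocyte markers tested, edgeR called 0, and 0 had an unadjusted p below 0.05. Hepatocyte markers summed to 88725 to 93590 CPM against 72417 to 84864 CPM, with Apoa1 and Pck1 of the 6 called lower. The part of these cells in the members' changes was not tested.

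Id4 had the largest fold change of the 7. It lies on chromosome 13 at 48261228 to 48266026 of GRCm38, on the plus strand. Its level was 1.84, 0.967 and 1.41 CPM in the mice on 50 ppm and 14.8, 22.1 and 19.5 CPM in the mice on 2% iron. All 3 iron-loaded mice lay far above the others, with no overlap. The log2 change was 3.73 (SE 0.42, adjusted p 2.25e-04 in edgeR's quasi-likelihood test), which is 13.3-fold. On the log2(TPM + 1) scale, which understates changes of low genes, limma gave 2.17, and every one of 13 alternatives kept the call, with adjusted p from 8.45e-16 to 0.00156. Here and below, the 13 alternatives include the fit without chow mouse 3 and 500 ppm mouse 2. These mice were picked after the members' levels were seen. The mice on chow had 2.26, 1.12 and 2.84 CPM, those on 500 ppm 1.72, 4.99 and 1.94 CPM, and those on 2% iron with cellulose 11.8, 9.26 and 16.6 CPM. Only the 2% diets exceeded 5 CPM.

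Id1, the member most often used as a readout of BMP signalling in liver, lies on chromosome 2 at 152736251 to 152737410 on the plus strand. It stood at 5.14, 5.80 and 4.64 CPM on 50 ppm and at 31.9, 35.5 and 31.8 CPM on 2% iron. Within both diets the mice were close together and the diets were far apart. The cellulose mice had 30.8, 39.5 and 44.8 CPM. Chow gave 3.85, 0.932 and 12.6 CPM and 500 ppm gave 4.13, 21.4 and 4.53 CPM, so that 1 mouse of each of these diets stood apart from its mates. Id1 was 6.37-fold higher on 2% iron than on 50 ppm, and its call was lost without 50 ppm replicate 1 (adjusted p 0.0598 in edgeR) or replicate 3 (0.0511), with a range of 7.17e-05 to 0.0598 over the 13 alternatives.

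Id2 and Id3 differed less. Id2 lies on chromosome 12 at 25093799 to 25097140 on the minus strand, and Id3 on chromosome 4 at 136143497 to 136145755 on the plus strand. Id2 was at 75.1, 58.3 and 58.5 CPM on 50 ppm, 105.1, 126 and 107.4 CPM on 2% iron and 85.2, 83.6 and 123 CPM on 2% iron with cellulose. On chow it was at 57.3, 39.2 and 132 CPM and on 500 ppm at 59.3, 95.96 and 57.9 CPM, with the highest of all 15 values in chow mouse 3. Its log2 difference between 2% iron and 50 ppm was 0.82 (SE 0.34, adjusted p 0.124 in edgeR).

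Id3 was at 24.3, 16.8 and 14.3 CPM on 50 ppm, 35.7, 50.1 and 36.4 CPM on 2% iron and 30.7, 29.8 and 68.8 CPM on 2% iron with cellulose. It was at 12.03, 10.2 and 38.8 CPM on chow and at 14.9, 30.03 and 14.9 CPM on 500 ppm. The same chow and 500 ppm mice were high as for Id1 and Id2. The log2 difference of Id3 between 2% iron and 50 ppm was 1.14 (SE 0.48, adjusted p 0.122 in edgeR). Both genes passed in a fit of the 2 compared groups alone, at 0.00572 for Id2 and 0.00982 for Id3. Over all 13 alternatives the adjusted p ran from 0.00572 to 0.251 for Id2 and from 0.00982 to 0.272 for Id3.

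Of the inhibitory SMADs, Smad7 changed more than Smad6. Smad7, which lies on chromosome 18 at 75367529 to 75395935 on the plus strand, encodes the inhibitor that acts on BMP and on TGF-beta receptors. It was at 13.8, 15.4 and 12.1 CPM on 50 ppm, 46.1, 61.3 and 57.005 CPM on 2% iron and 34.6, 58.8 and 45.7 CPM on 2% iron with cellulose. Chow mice had 10.999, 9.88 and 27.1 CPM and 500 ppm mice 10.8, 32.8 and 14.8 CPM. The groups on the 2% diets lay above all other mice, the highest of which was the same 500 ppm mouse that was high for Id1. Smad7 was 3.99-fold higher on 2% iron than on 50 ppm (adjusted p 0.00581 in edgeR).

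Smad6, on chromosome 9 at 63953076 to 64022059 on the minus strand, encodes the inhibitor that acts mainly on BMP signals. It was at 8.24, 6.96 and 6.63 CPM on 50 ppm and at 12.02, 14.6 and 11.3 CPM on 2% iron. The mice on 2% iron with cellulose had 15.5, 16.6 and 12.2 CPM, those on chow 6.96, 6.62 and 8.14 CPM and those on 500 ppm 8.78, 11.7 and 7.77 CPM. The change was small and the mice of a diet were close together, with 1 mouse on 500 ppm above the lowest mouse on 2% iron. Its log2 change from 50 ppm to 2% iron was 0.80 (SE 0.18, adjusted p 0.00884 in edgeR).

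Atoh8 was the most regular member. It lies on chromosome 6 at 72206177 to 72235577 on the minus strand. Its level was 14.01, 14.1 and 16.7 CPM on chow, 21.03, 24.2 and 23.04 CPM on 50 ppm and 22.6, 32.1 and 33.2 CPM on 500 ppm. Mice on 2% iron had 62.7, 75.3 and 71.1 CPM and those on 2% iron with cellulose 59.3, 73.3 and 53.9 CPM. Chow mice lay below all others, and both 2% diets above all others. The log2 change from 50 ppm to 2% iron was 1.61 (SE 0.15, adjusted p 8.49e-05 in edgeR), which is 3.06-fold. Neither chow mouse 3 nor 500 ppm mouse 2 stood far from its group for Atoh8, unlike for the ID genes and Smad7.

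**Figure D2:**
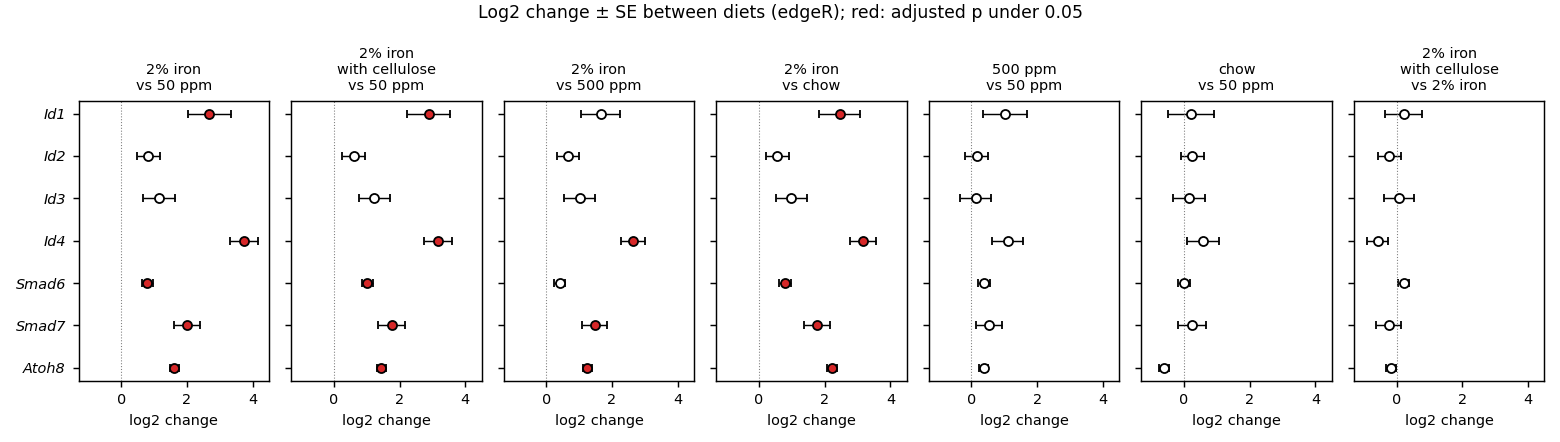
Log2 change (horizontal axes) of each gene in 7 diet comparisons, 1 per panel, as points with bars for the SE from edgeR's fit of 15 mice, filled red where the adjusted p was under 0.05. Id4 has the largest change from 50 ppm to 2% iron at 3.73, and Atoh8 the smallest SE at 0.15.

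Whether an intermediate iron level changed the members was asked with 500 ppm. Between 500 ppm and 50 ppm 0 of 7 members and 0% of all tested genes were called by edgeR, and DESeq2 and limma also called 0 members. At an unadjusted p under 0.05 there were 3 members, Id4 at a log2 difference of 1.10, Smad6 at 0.38 and Atoh8 at 0.37. The groups overlapped for each of the 7. Without 500 ppm mouse 2 the differences of Id1, Id2, Id3 and Smad7 had the opposite sign, at -0.25, -0.13, -0.31 and -0.096. That mouse also had the deepest diet library, at 20.4 M counts against 11.9 and 14.1 M in its mates, and a summed neutrophil marker level of 8.91 CPM against 0.258 and 0.431 CPM. The part of depth and of neutrophils in its levels was not tested.

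Relative to 500 ppm, 3 of 7 members rose on 2% iron, Id4 by a log2 change of 2.64 (adjusted p 7.65e-04 in edgeR), Atoh8 by 1.24 (2.52e-04) and Smad7 by 1.47 (0.0262). The share of all genes called higher was 6.59%. Groups did not overlap for 6 members, all but Smad6, against 15.95% of all genes. The log2 difference of Id1 was 1.66 (adjusted p 0.0875), and without 500 ppm mouse 2 it was 2.92 and 5 members were called. That fit also called more genes over all, 15.9% in either direction against 11.3% with all 15 mice. Smad7 was not called in the fit of the 2 groups alone, nor without 2% iron replicate 2 or 3 or 500 ppm replicate 1 or 3, and its adjusted p ran from 1.38e-04 to 0.105 over 13 alternatives. The count fell to 2 in each of these 5 fits.

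Chow was the second reference. Relative to chow, 5 of 7 members rose on 2% iron, against 11.9% of all genes called higher. Log2 changes were 2.45 for Id1, 3.15 for Id4, 0.80 for Smad6, 1.76 for Smad7 and 2.22 for Atoh8, whose adjusted p of 6.57e-06 in edgeR was the lowest of any member. Groups did not overlap for these 5, against 20.3% of all genes, and overlapped for Id2 and Id3, where chow mouse 3 lay within or above the mice on 2% iron. Without that mouse all 7 were called and the log2 change of Id1 was 3.78. Over all genes, 2627 were called in either direction in that fit and 3087 with all 15 mice. Without chow replicate 1 the call of Id1 was lost, at an adjusted p of 0.0548, with a range of 4.26e-05 to 0.0548 over 13 alternatives. The comparisons with chow, 500 ppm and 50 ppm share the 3 mice on 2% iron.

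Chow and 50 ppm differed little in these genes. By edgeR 0 of 7 members and 0.391% of all genes were called in either direction. Atoh8 was the single member with an unadjusted p under 0.05. Its log2 difference was -0.60 (SE 0.15, adjusted p 0.148), at 14.9 ± 1.55 CPM on chow and 22.7 ± 1.59 CPM on 50 ppm (SD, n = 3 each), with no overlap. DESeq2 called it at 0.0439, limma called no member, and the adjusted p ran from 0.0439 to 0.479 over 13 alternatives. Without chow mouse 3 the differences of Id1, Id2, Id3 and Smad7 turned from positive to negative, with Id1 at -1.11.

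The 2% diet whose label names cellulose as the fibre source was compared with the other 2% diet. Between 2% iron with cellulose and 2% iron, edgeR called 0 of 7 members and 0.0811% of all genes, DESeq2 and limma called 0 members, and 0 members reached an unadjusted p under 0.05. The largest difference was that of Id4, at -0.58 (SE 0.33), and the other 6 lay within 0.25 of 0. For all 7 the groups overlapped. Compared with 50 ppm, the cellulose mice had 5 members higher, against 15.4% of all genes. These were the 5 called for 2% iron against 50 ppm, with log2 changes of 2.89 for Id1, 3.16 for Id4, 1.02 for Smad6, 1.76 for Smad7 and 1.45 for Atoh8. Groups did not overlap for all 7, against 22.4% of all genes, and both contrasts share the 50 ppm mice. Cellulose mouse 3 had the highest sum of Kupffer cell and macrophage markers of any diet mouse, at 839 CPM, with its mates at 604 and 559 CPM. Cellulose mouse 1 had the highest neutrophil sum, at 77.7 CPM, with its mates at 6.88 and 12.6 CPM.

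The rest of the pathway was described from 7 lists of 41 genes, of which 38 could be tested. On 2% iron relative to 50 ppm 10 were higher and 3 lower, with a median log2 change of 0.11 over the 38. Of all 13560 tested genes 8.52% were called higher and 15.7% in either direction. Among 7 ligands, Bmp6 was higher, Bmp7 was lower (from 2.41 to 0.880 CPM), and Bmp2 was not called, at 0.16 (SE 0.28). Among 7 receptors, the type I receptor Acvrl1 rose by 1.30 and the type II receptor Acvr2b fell by 1.18, while Bmpr1a and Acvr1, the type I receptors of hepatocytes, were at -0.051 and -0.092 and not called. No co-receptor or partner of the 5 tested was called by edgeR, and none (0) reached an unadjusted p under 0.05.

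Of the 4 SMADs that carry the signal, Smad9 alone was called, rising from 15.2 ± 5.06 to 48.2 ± 2.60 CPM (SD, n = 3 each). Smad1, Smad5 and Smad4 were at log2 differences of 0.24, -0.17 and 0.013. Inhibitors of the pathway were called in both directions. Fst (follistatin) rose from 2.41 to 9.28 CPM and the decoy receptor Bambi from 2.56 to 4.51 CPM. Fkbp1a, which holds type I receptors inactive, rose by 0.41, and Bmper, a secreted modulator, rose from 0.331 to 2.67 CPM. Tmprss6, the protease that cleaves hemojuvelin, was called lower. Both hepcidin genes were higher, and Hamp2 can share reads with Hamp. The helix-loop-helix partners that ID proteins capture, Tcf3, Tcf4 and Tcf12, were not called by edgeR, with 1 at an unadjusted p under 0.05.

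Differences between mice of the same diet were then compared among the members. Each gene's log2 level was taken relative to its diet mean in the 15 mice, and all orders of mice within diets gave exact two-sided permutation p-values, adjusted over 42 relations. Of these, 5 were called by r, all among the ID genes and Smad7. Id2 and Id3 had r = 0.96 and rho = 0.94, Id2 and Id4 had r = 0.82, Id1 and Smad7 r = 0.88, Id1 and Id3 r = 0.80 and Id3 and Id4 r = 0.79. By rho only Id2 with Id3 and Id2 with Id4 were called, each at an adjusted permutation p of 0.0351. Id1 with Smad7 (0.0738), Id3 with Id4 (0.115) and Id1 with Id3 (0.127) were not called by rho. Atoh8 had r of 0.16 to 0.42 with the ID genes, none of which was called. Without the 2 mice farthest from the median of the first gene of each pair 0 were called over the 13 mice that remained, with 9 of the 42 at an unadjusted p under 0.05. The r of these 5 pairs was then 0.97 for Id2 and Id3, 0.93 for Id2 and Id4, 0.91 for Id1 and Smad7 and 0.84 for Id3 and Id4, while that of Id1 and Id3 was lower, at 0.68.

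**Figure D3:**
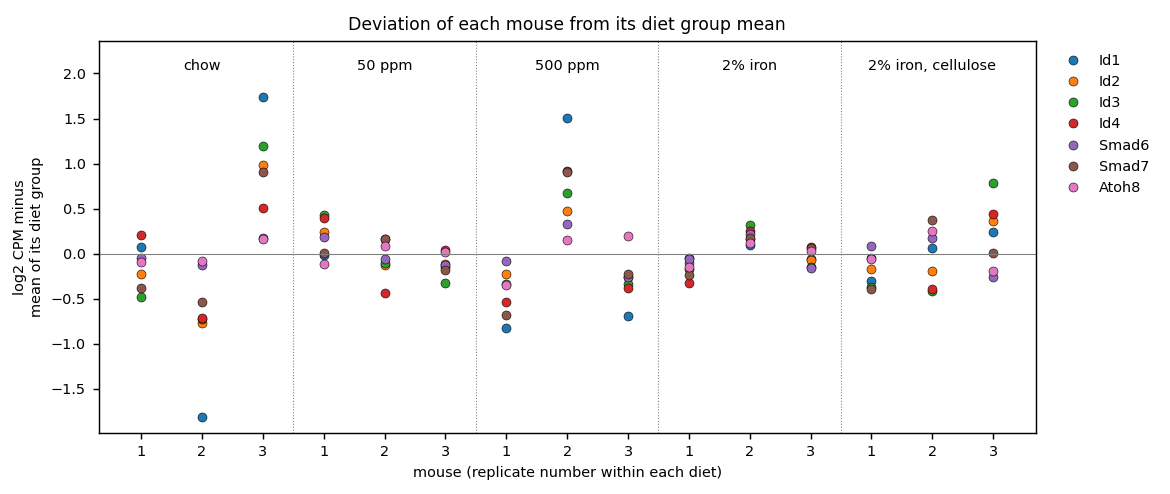
Deviation of each mouse from its diet mean (log2 CPM) for the 7 genes. Chow mouse 3, chow mouse 2 and 500 ppm mouse 2 lie farthest from 0, with Id1 at 1.74, -1.81 and 1.51, while Atoh8 stays between -0.35 and 0.25 in all 15 mice.

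In the panel every strain was fed 2% iron, and the 7 genes were compared across 114 strains. Per transcript length Id2 was the most abundant, with a median of 154 TPM over strains. Id3 and Id1 followed at 45.1 and 43.1 TPM, with ranges that overlap (13.98 to 144 TPM and 8.48 to 91.7 TPM). Atoh8 had a median of 23.99 TPM and Smad7 16.3 TPM. Smad6, at 5.91 TPM, and Id4, at 2.89 TPM, were lowest, with ranges of 1.86 to 13.1 TPM and 0.424 to 10.7 TPM. In C57BL/6J mice on 2% iron Id2 was likewise first, at a mean of 105.2 TPM, and Smad6 and Id4 last, at 4.82 and 5.23 TPM.

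Id4 varied most between strains. Its level ran from 1.71 CPM in DBA/2J through a median of 10.3 CPM to 34.9 CPM in SEA/GnJ, a 20.5-fold range. For Atoh8 the range was 8.54 CPM (DBA/2J), 46.7 CPM (median) and 81.3 CPM (C57BL/6J), and for Id1 it was 7.12 CPM (DBA/2J), 31.8 CPM and 64.6 CPM (BXD11/TyJ). Smad7 ran from 10.8 CPM in BALB/cByJ through 53.4 to 95.7 CPM in BXA4/PgnJ. Id3 ran from 15.5 CPM in BALB/cByJ through 45.4 to 115.1 CPM in KK/HlJ, and Id2 from 53.6 CPM in BALB/cByJ through 164 to 316.1 CPM in 129X1/SvJ. Smad6 had the narrowest range, 5.33-fold, from 5.56 CPM in BXD100/RwwJ through 14.4 to 29.7 CPM in AXB5/PgnJ. The 2 mice of 129X1/SvJ differed by 1.09-fold (Id2) to 1.38-fold (Id1).

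**Figure D4:**
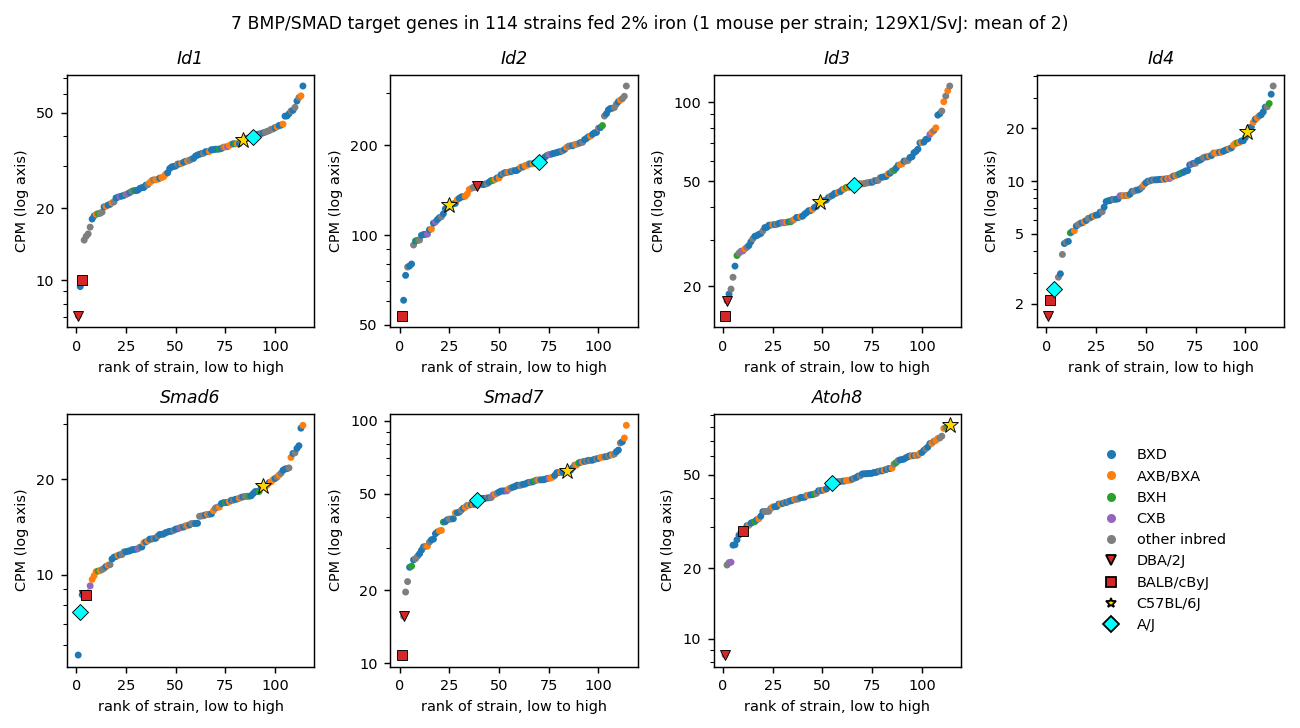
Level of each gene (log axis, CPM) in 114 strains on 2% iron, ordered from the lowest to the highest strain and coloured by family, with 1 mouse per strain and the mean of 2 for 129X1/SvJ. DBA/2J is lowest for Id1, Id4 and Atoh8, BALB/cByJ for Id2, Id3 and Smad7, and C57BL/6J is highest for Atoh8.

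The spread between strains was set beside the spread between C57BL/6J mice of 1 diet. The SD of log2 CPM over strains, divided by that over mice around their diet means, was 2.45 for Atoh8, 1.92 for Smad6 and 1.53 for Id4. It was 1.04 for Id2, 0.944 for Smad7, 0.850 for Id3 and 0.542 for Id1, where single mice on chow and 500 ppm set the spread. Over 13406 genes the median ratio was 1.65, and 93.6% of genes had a ratio over 1. With the 6 mice on the 2% diets alone as the yardstick, the members' ratios ran from 1.07 for Id3 to 2.66 for Id1, beside a median of 1.78. Id1, Id3 and Smad7 thus had no larger spread between strains than between mice of 1 strain over all diets. Against the mice on the 2% diets, which share the panel's iron level, their ratios were over 1, at 2.66, 1.07 and 1.68.

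Single strains were low or high in several members at once. BALB/cByJ was among the lowest 10 strains for all 7 members, with Id1 at 10.01 CPM, Id4 at 2.09 CPM and Smad7 at 10.8 CPM. The related substrain BALB/cJ had 26.2, 2.38 and 27.7 CPM of these, and of the 7 members was among the lowest 10 for Id4 (rank 3) and Smad7 (rank 9). DBA/2J was among the lowest 10 for 6 members and at rank 39 for Id2 (146 CPM). FVB/NJ was in the lowest 10 for 6 members, and SJL/J and BXD27/TyJ for 5 each. At the other end AXB5/PgnJ was among the highest 10 for 6 members and KK/HlJ for 5. In DBA/2J, library total and marker sums were at ranks 21 to 84 of 114. In BALB/cByJ the lymphocyte, neutrophil and Kupffer cell sums were low, at ranks 3, 5 and 16, with endothelial markers at rank 71. FVB/NJ had hepatocyte markers at rank 6 of 114 and erythroid markers at 1434 CPM against a median of 171.6 CPM, and SJL/J had the highest Kupffer cell sum of all strains, at 932 CPM. Neutrophil sums were 63.5 CPM in FVB/NJ, 65.7 CPM in SJL/J and 109.4 CPM in BXD27/TyJ, all above the strain median of 4.80 CPM. SJL/J also had endothelial markers at 678 CPM (median 475 CPM) and lymphocyte markers at 8.09 CPM (median 4.07 CPM). The part of these cells in the strains' levels was not tested.

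Progeny of DBA/2J and C57BL/6J were set beside their parents. The parents differed 11.2-fold for Id4, 9.52-fold for Atoh8, 5.40-fold for Id1, 3.96-fold for Smad7, 2.37-fold for Id3 and 2.20-fold for Smad6, each higher in C57BL/6J, while Id2 was at 126 CPM in C57BL/6J and 146 CPM in DBA/2J. For Atoh8 all 56 BXD strains lay between the parents, from 25.1 to 67.9 CPM. These parents were the lowest and the highest of all 114 strains for Atoh8, so a strain of any family had to lie between them. For Id4 50 lay between and 6 above both. For Id1, Id3 and Smad7 no BXD strain was below DBA/2J, and 16, 31 and 13 were above C57BL/6J. DBA/2J was the lowest of the 114 strains for Id1 and Id4 and at rank 2 for Id3 and Smad7. The absence of BXD strains below it therefore says little about this family. Among the 20 AXB/BXA strains, whose parents C57BL/6J and A/J differed 7.91-fold for Id4, 18 lay between the parents and 2 above. For Id1, where these parents were at 38.4 and 39.7 CPM, 17 of the 20 were below both. A parent is 1 mouse here, so these counts are descriptions. Between the BXD and AXB/BXA families 0 of 7 members were called by edgeR, 0 had an unadjusted p under 0.05, and DESeq2 and limma called 0, beside 11.6% of all genes called in either direction. Id3 had the lowest p, at 0.0649 (46.6 ± 15.4 CPM in 56 BXD strains and 54.8 ± 22.3 CPM in 20 AXB/BXA strains, SD).

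Across strains the 7 genes were positively related to each other. All 21 pairs were positively correlated in log2 CPM over 114 strains, with r from 0.47 for Id2 and Smad6 to 0.79 for Id1 and Smad7 and a median of 0.59. Each pair passed a two-sided permutation test with 100000 resamples and Benjamini-Hochberg adjustment over 42 relations of members with each other and with Bmp6, Bmp2 and Hamp, and Spearman's rho called the same number. For Id1 and Smad7 rho was 0.72 and the p-value of both was 1e-05, the smallest these permutations can give. The share of all gene pairs that pass this threshold over the 114 strains was not computed, and ranks among all genes are given below. Within the 56 BXD strains 20 pairs were called, with Smad6 and Atoh8 at r = 0.29 the exception. Within the 20 AXB/BXA strains 13 were called, with the lowest r at 0.14 for Id1 and Id2, and within the 31 other inbred strains 21. Without the 2 strains farthest from the median of the first gene all 21 were called, at r from 0.39 to 0.75, and without BXD65 all 21 as well.

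Their relation to the ligand and to hepcidin was weaker. For the ligand Bmp6 4 of 7 members were called by r, Smad6 at 0.35, Id4 at 0.31, Id1 at 0.24 and Smad7 at 0.21, and 6 by rho. Atoh8 (r = 0.16), Id3 (0.16) and Id2 (0.092) were not called by r. In the order of 15676 genes by r, Bmp6 was at rank 362 for Id1, 465 for Id4 and 1480 for Smad7. Bmp6 lay nearer the top for Smad6 than for these members, and farther down for those not called. Within BXD 2 members were called with Bmp6, Smad6 and Id4, and within AXB/BXA and within the other inbred strains 0 by r, with 0 at an unadjusted permutation p under 0.05. Without the 2 farthest strains Smad7 was not called with Bmp6 (r = 0.15, adjusted permutation p 0.135), and on log2(TPM + 1) all 7 were called. With Bmp2, Id2 alone was called, at r = -0.23, but on log2(TPM + 1) its r was -0.033 (adjusted permutation p 0.801). Hamp was called with all 7 by r (0.27 to 0.44) and with 6 by rho, but within families with 1 member in BXD, 0 in AXB/BXA (1 at an unadjusted p under 0.05) and 4 in the other inbred strains. Among 15676 genes ordered by r, Hamp was at rank 18 for Atoh8, 19 for Id1 and 27 for Smad7, but at rank 467 for Id4, 505 for Smad6, 794 for Id3 and 1067 for Id2. Library total was related to 0 of 7 members by r after adjustment, with 0 at an unadjusted p under 0.05, and by rho Id4 had 0.20 at an unadjusted permutation p of 0.0313 (adjusted 0.219). Of 49 relations between members and marker scores of 7 other cell types, 0 were called on log2 CPM, where 8 had an unadjusted permutation p under 0.05, and 15 on log2(TPM + 1), of which stellate cells gave 6 and Kupffer cells 4.

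**Figure D5:**
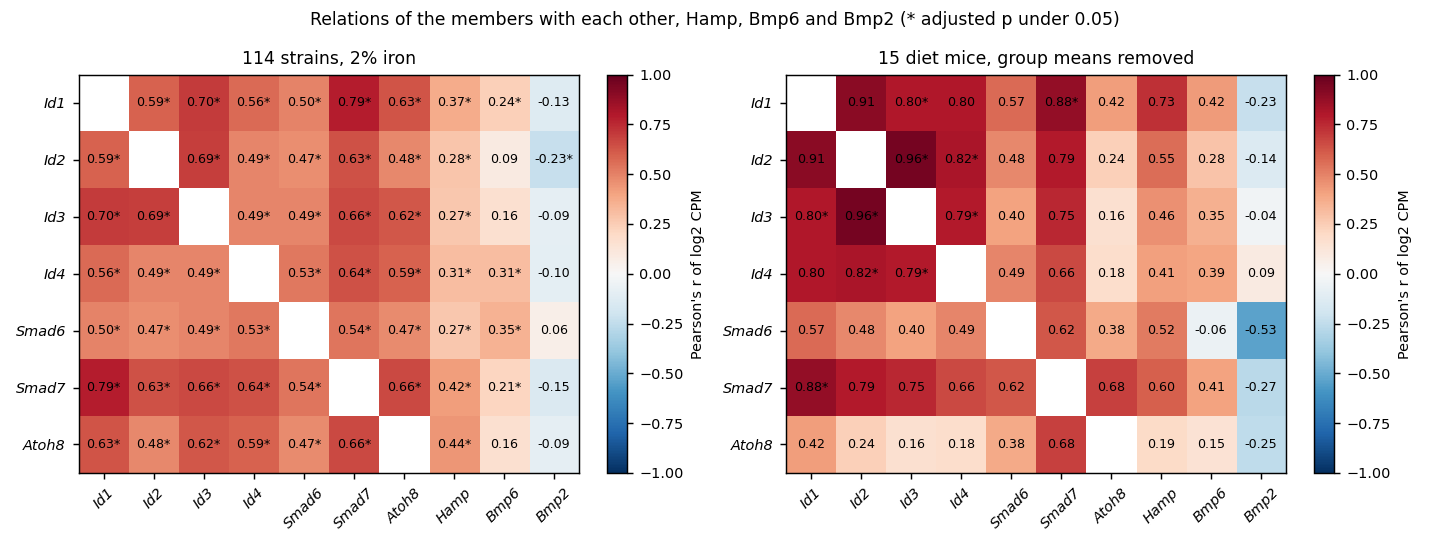
Pearson's r of log2 CPM between each pair of the 7 genes, and with Hamp, Bmp6 and Bmp2, across 114 strains on 2% iron (left) and across 15 diet mice with diet means removed (right), as coloured cells with an asterisk at an adjusted permutation p under 0.05. All member pairs are positive in the strains, at 0.47 to 0.79, and in the diet mice 5 pairs carry an asterisk.

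The genes most alike in pattern were then ranked by r over the 114 strains among 15676 other genes. For Id1 and for Smad7 the 6 nearest genes were the 6 other members, with Smad7 and Id1 each other's nearest at 0.79. The 3 nearest genes of Id3 and of Atoh8 were also members. Elsewhere some members ranked lower, with Id4, Atoh8 and Smad6 at ranks 37, 53 and 65 for Id2. For Id3, Id4 was at rank 19 and Smad6 at rank 23, and for Smad6, Id2 was at rank 15. Outside the list, Cxxc5 was the nearest gene of Smad6 (r = 0.54) and the third nearest of Id2 (r = 0.60), and Ptpdc1 was second for Id4 (r = 0.62, and 0.51 within BXD). Ptpdc1 lies on chromosome 13 at 48577872 to 48625664, close to Id4 at 48261228 to 48266026. Inheritance of both genes together and shared regulation therefore cannot be told apart for this pair. Ptpdc1 was at 1.28 ± 0.449 CPM on 50 ppm and 6.55 ± 1.33 CPM on 2% iron (SD, n = 3 each), a log2 change of 2.35 (SE 0.39, adjusted p 0.00210 in edgeR). Cxxc5 was at 41.5 ± 5.36 and 40.9 ± 2.10 CPM, a log2 difference of -0.02 that was not called.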

How the data were processed

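Liver RNA of 130 mice was sequenced from a stranded mRNA kit, per the labels' protocols. The authors deposited, for each gene, expected counts and TPM, quantified with kallisto 0.46 on mm10, per the submitters' processing notes. The counting strand and the annotation release are not given in the sources used here. The deposited expected counts were rounded for the count test, which needs whole numbers. Symbols came from GENCODE M21, which matched 34845 of 35274 and 35612 of 35711 identifiers.

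Counts were tested with edgeR 4.0.16 (quasi-likelihood, TMM factors, filterByExpr, Benjamini-Hochberg adjustment) in R 4.3.3, and the threshold for a call was an adjusted p of 0.05. The 15 diet mice shared 1 fit, and BXD and AXB/BXA strains had their own. Log2 CPM used a prior count of 2. The diet and panel tables were never pooled. The labels give separate mice and no replicate numbers, so mouse numbers follow accession order and only name a mouse, and p-values measure the spread between these mice. Diet libraries held 10.4 to 20.4 M counts and panel libraries 9.41 to 20.57 M (M for 1000000), which limits precision for low genes such as Id4.

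Relations used Pearson's r and Spearman's rho with 100000 permutations in Python 3.11.15 with scipy 1.17.1, with the mean of both 129X1/SvJ mice as that strain's value. A pooled r was to be withheld from a member whose strains formed clusters (Ashman D over 3 and BIC gain over 10 in a mixture of 2 normals), which none did. The tests were tested on simulated data. Alternatives were RLE factors, no filter, the compared groups alone, DESeq2 1.42.0, limma 3.58.1 on log2(TPM + 1) and log2(TPM + 0.1), and each mouse left out.

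Named genes are the members, the pathway genes called in 2% iron against 50 ppm with Bmp6, Bmp2 and Hamp, and each member's 3 nearest genes by r. Other names were chosen after their values were seen. Some listed genes are not reported here. The members and all lists were chosen with earlier results of these data known.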

Additional observations from a re-analysis of the deposited data

How the results depend on the processing

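Most results kept their direction and their side of the threshold. The alternatives were those listed under processing and, for relations, a prior count of 0.5, single families and family means removed. Also included were results without BXD65, with substrains reduced, without the cellulose group and without the 2 farthest strains or mice. All but 6 recomputed counts stayed within 1.5 times the reported count. Of the single values 910 held, 54 lost and 14 gained a call and 31 changed sign. Leaving out each mouse in turn gave 4 to 5 called members for 2% iron against 50 ppm, 2 to 5 against 500 ppm and 4 to 7 against chow, 5 for cellulose against 50 ppm, and 0 by edgeR for cellulose against 2% iron, 500 ppm against 50 ppm and chow against 50 ppm. Over all genes these fits called, in either direction, 1003 to 1640, 788 to 2204, 2151 to 2627 and 2708 to 3673 for the first 4 of these contrasts, against 2127, 1538, 3087 and 4026 with all 15 mice, and 0 to 212, 0 and 4 to 62 for the last 3. DESeq2 called 1 member for chow against 50 ppm. A fit without chow mouse 3 and 500 ppm mouse 2, which were picked after the members' levels were seen, called 7 for 2% iron against 500 ppm and is no support for it.

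The sign changes between groups of mice or strains were in differences that passed no test. For 500 ppm against 50 ppm, leaving out 1 mouse gave -0.25 to 1.36 for Id1, -0.13 to 0.29 for Id2, -0.31 to 0.38 for Id3 (-0.028 without 50 ppm replicate 3) and -0.096 to 0.81 for Smad7, and without both mice the values were -0.25, -0.13, -0.31 and -0.096. For chow against 50 ppm, leaving out 1 mouse gave -1.11 to 0.69 for Id1, -0.41 to 0.56 for Id2, -0.73 to 0.47 for Id3, -0.39 to 0.48 for Smad7 and -0.098 to 0.096 for Smad6, and without both mice Id1, Id2, Id3 and Smad7 were at -1.11, -0.41, -0.73 and -0.39. On log2(TPM + 1) and log2(TPM + 0.1) this contrast gave Id1 at -0.37 and -0.57, Id3 at -0.12 and -0.14 and Smad6 at 0.035 and 0.040, and without the filter Smad6 was at 7.5e-04. For cellulose against 2% iron Id3 was at -0.016 and -0.018 on these TPM scales and ran from -0.43 to 0.29 with 1 mouse left out. For BXD against AXB/BXA Smad6 was at 0.0089 and 0.011 on the TPM scales and Id2 at 0.0046 without BXD65.

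Within AXB/BXA 13 of 42 panel relations were called against 33 in all strains, and Id2, Id3 and Id4 had r of -0.16, -0.12 and -0.073 with Hamp, although each was called with it over all strains. On log2(TPM + 1) 15 marker relations and 3 relations among diet mice were called by r. Without the 2 farthest mice 0 were called, and Id2 with Atoh8, Id4 with Smad6 and Id4 with Atoh8 were at -0.041, -0.032 and -0.18. The causes were not tested. No paired analysis was possible because the labels carry no replicate numbers.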
